A study of Mus musculus with 16 samples.

Results

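Macrophage lineage transcription factors were examined as 9 genes, Cebpa, Cebpb, Cebpd, Pparg, Maf, Spi1, Nr1h3, Myc and Bhlhe40, out of the 24421 genes in the count data. The rows were found by gene symbol, and each of the 9 symbols occurred in the files. The cells were CD11b+ leukocytes sorted from subcutaneous tumours of MC38-Ova, a murine colon adenocarcinoma line that carries ovalbumin, grown in C57BL/6 mice with the Kaede transgene that were aged 8 to 14 weeks. Kaede is a fluorescent protein that violet light converts from green to red. The tumour was illuminated on day 13, so that Kaede-red cells were in the tumour at that moment and Kaede-green cells entered it afterwards. According to the study conversion was nearly but not wholly complete, so a small share of Kaede-green cells may have been there already. There were 16 libraries, 4 for each colour and each time (24h or 72h after photoconversion), all from untreated control tumours and with 1 batch label. The sort gate was live CD45+, Kaede+, CD11b+, TER119- and NK1.1-, which takes in monocytes and other CD11b+ leukocytes besides macrophages.

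PU.1 (Spi1) and the C/EBP factors are the lineage-determining factors of myeloid cells, and together they open the enhancers on which later factors act. C/EBPβ is best known for the inflammatory and acute-phase programme of monocytes, whereas c-MAF is linked to the mature and resident macrophage state. LXRα (Nr1h3) and PPARγ are lipid-sensing nuclear receptors that form heterodimers with RXR and control cholesterol efflux and fatty acid handling in macrophages.

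Kaede-red and Kaede-green libraries differed in depth, which touches each value given here. Total counts were between 3216858 and 15423085 per library. The 45S ribosomal precursor Rn45s took between 79.0 and 93.4% (median 89.6%) of the counts in Kaede-green and between 55.8 and 84.9% (median 69.2%) in Kaede-red libraries (two-sided exact permutation test within times, p = 0.000408). Outside Rn45s, Kaede-green libraries held between 468092 and 912689 counts and Kaede-red libraries between 758192 and 5472477 (the same exact permutation test, p = 0.000816). Levels are therefore given as CPM, counts per 1000000 after TMM scaling, which is set by the bulk of genes and not by Rn45s. Differences are log2 fold changes ± SE from 1 edgeR quasi-likelihood fit of all 16 libraries, and a gene was called at an adjusted p under 0.05 over the 9642 genes tested. In bulk samples, fewer cells of a type and less RNA per cell cannot be told apart.

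Macrophage markers were higher in Kaede-red cells, and some monocyte markers were lower. All 6 macrophage markers examined (Adgre1, Csf1r, Cd68, Mertk, C1qa and Mrc1) were called higher in Kaede-red cells over both times. Mertk passed the filter on low counts only through the Kaede-red libraries, and without it 5 of 5 were called higher. Of all genes tested, 20.3% were called in that comparison. The summed level of the 6 markers was between 98.3 and 150 CPM in the Kaede-green and between 213 and 414 CPM in Kaede-red libraries. Of 5 monocyte markers, 3 (Plac8, Chil3 and Vcan) were called lower in Kaede-red cells over both times and none higher, whereas Ly6c2 (-0.12 ± 0.18) and Ccr2 (-0.01 ± 0.13) were not called. At 72h Plac8 was the 1 monocyte marker called, and the list median was 0.17. The summed monocyte level was between 670 and 1551 CPM in the Kaede-green and between 446 and 691 CPM in Kaede-red libraries. Plac8 made up much of this sum, with mean levels at 24h of 848 CPM (Kaede-green) and 223 CPM (Kaede-red), and at 72h of 543 and 146 CPM. The sum of the other 4 was between 331 and 596 CPM (Kaede-green) and between 236 and 356 CPM (Kaede-red) at 24h, and at 72h it was between 294 and 398 CPM and between 356 and 502 CPM. The part of this shift in the results below was not tested.

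The promoters of the C/EBP genes that differed in opposite directions are shown beside that of Pparg, a gene that C/EBP factors are known to bind. Each sequence holds the 250 bases before a RefSeq start site, 5′ to 3′ on the plus strand of GRCm38.p6, and capitals mark matches on either strand to the C/EBP-type letters TTGCNNAA.
Cebpb, chr2:167688665-167688914: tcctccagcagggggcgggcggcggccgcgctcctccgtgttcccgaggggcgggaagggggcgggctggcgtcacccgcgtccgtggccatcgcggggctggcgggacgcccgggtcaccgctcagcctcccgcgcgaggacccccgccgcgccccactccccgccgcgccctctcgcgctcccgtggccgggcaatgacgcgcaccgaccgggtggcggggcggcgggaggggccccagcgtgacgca
Cebpa, chr7:35119043-35119292: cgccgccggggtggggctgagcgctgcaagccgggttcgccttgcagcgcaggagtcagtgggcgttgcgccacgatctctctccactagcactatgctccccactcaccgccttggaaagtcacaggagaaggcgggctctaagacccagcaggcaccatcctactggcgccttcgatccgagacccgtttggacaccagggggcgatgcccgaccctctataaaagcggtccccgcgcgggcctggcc
Pparg, at the third annotated start site, chr6:115421816-115422065: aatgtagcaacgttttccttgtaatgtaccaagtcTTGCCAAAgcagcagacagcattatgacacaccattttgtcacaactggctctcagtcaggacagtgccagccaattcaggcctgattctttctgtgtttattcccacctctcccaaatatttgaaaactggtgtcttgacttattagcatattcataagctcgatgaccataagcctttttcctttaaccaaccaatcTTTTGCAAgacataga
The third Pparg window held 2 matches, TTGCCAAA from base -215 and TTTTGCAA from base -16 relative to the start site, whereas the Cebpa and Cebpb windows held none. This motif occurred in 9.56% of 32851 such windows of the mouse genome. The windows before the other two Pparg start sites each held 1 nuclear receptor half-site, AGGTCA, at base -28 and base -9 respectively, a motif found in 14.02% of windows. In the 7 windows of the 4 members with a RefSeq promoter entry (Cebpa, Cebpb, Nr1h3 and Pparg), none held the PU.1-type letters GAGGAAGT (2.44% of windows), the E-box CACGTG (6.02%) or the MAF half-site TGCTGA (16.1%). The counts are per gene and do not tell which Pparg start site was used.

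Per kb of exon, Cebpb had the highest level of the 9 factors, with a median of 35.9 CPM per kb over the 16 libraries, followed by Spi1 with 14.7 CPM per kb. Nr1h3 (4.04 CPM per kb), Bhlhe40 (3.09), Cebpa (2.73) and Maf (2.70) formed a middle group, and Myc (1.17), Pparg (1.08) and Cebpd (0.906) were lowest. The lowest Cebpb library, at 19.4 CPM per kb, was below the highest Spi1 library, at 21.7 CPM per kb, so that their ranges touched. The ranges of Spi1 (from 8.35 CPM per kb) and Nr1h3 (up to 6.77 CPM per kb) did not overlap, and from Nr1h3 downwards each gene overlapped its neighbour in the order.

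Over both times, 6 of the 9 factors were called between Kaede-red and Kaede-green cells, against 20.3% of all genes tested. Maf, Nr1h3, Cebpa, Pparg and Myc were higher and Cebpb was lower in Kaede-red cells. The median log2 fold change of the 9 factors was 0.75, and that of all genes tested was 0.06. Pparg and Myc passed the filter on low counts only through the Kaede-red libraries, since none of the Kaede-green 24h and 2 of the Kaede-green 72h libraries reached its level. Without both genes 4 of 7 were called, and the median log2 fold change of the 7 was 0.24. With the Rn45s share of each library as a covariate, 0 of the 9 were called over both times, while 156 of all genes were.

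**Figure D1:**
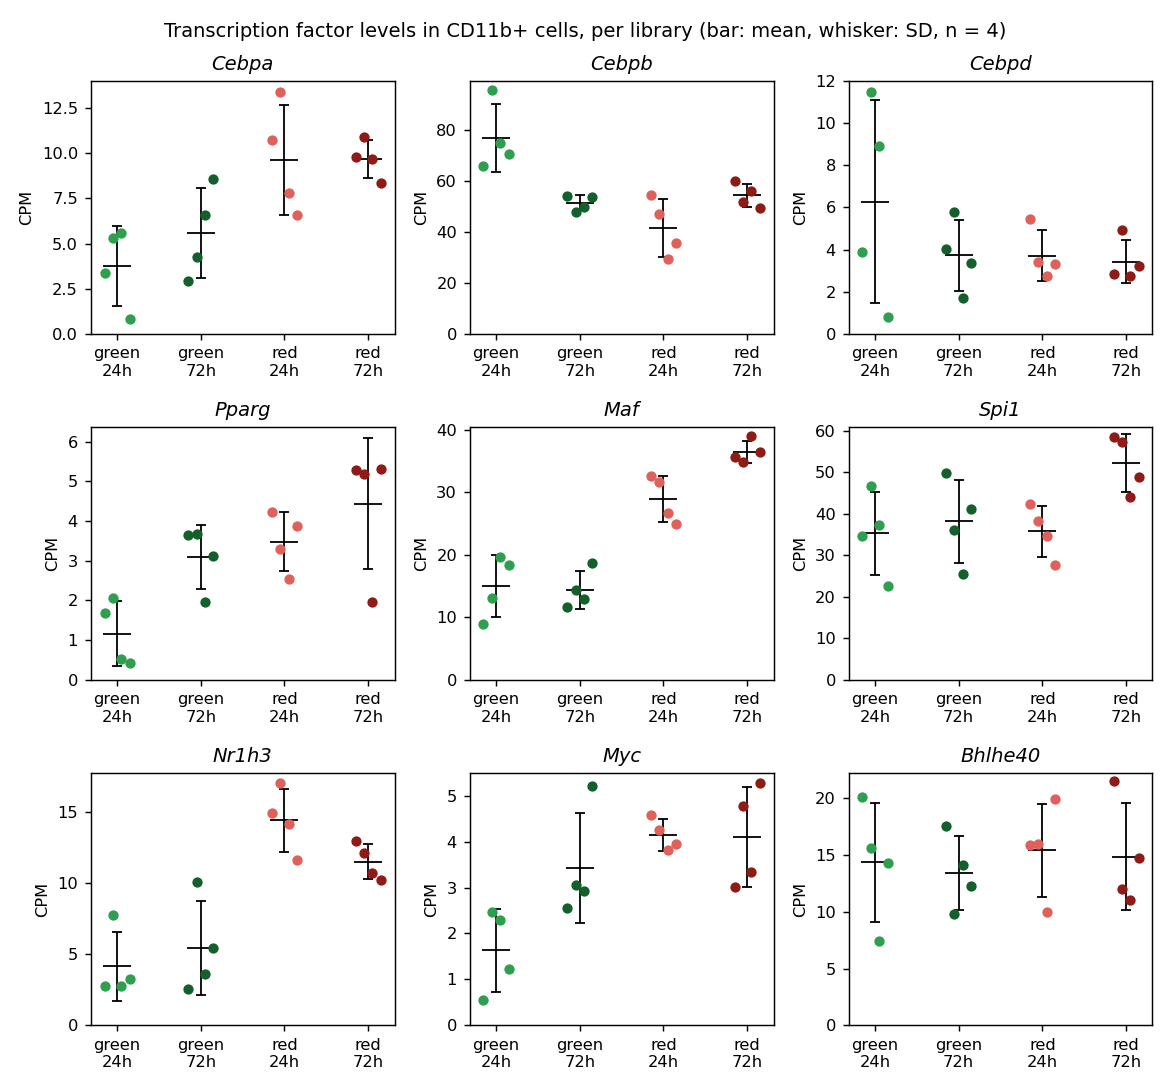
Level of each factor in CPM (vertical axis, starting at 0) in the 16 libraries by group, with 1 point per library, the mean as a bar and the SD as a whisker (n = 4). All Kaede-red libraries lie above all Kaede-green libraries for Maf and Nr1h3, whereas Spi1 and Bhlhe40 overlap between Kaede-red and Kaede-green at both times.

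Positions of the factors are given on GRCm38 (mm10). Spi1 (chromosome 2, 91082390 to 91115756, plus strand), which encodes PU.1, the ETS-family factor required to make macrophages, was not called between the colours with TMM scaling. At 24h its level was 34.6, 46.7, 37.2 and 22.5 CPM in the Kaede-green and 42.2, 38.3, 34.7 and 27.7 CPM in the Kaede-red libraries. At 72h it was 49.7, 36.03, 25.5 and 41.1 CPM in the Kaede-green and 58.5, 57.2, 44.0 and 48.8 CPM in the Kaede-red libraries. The groups overlapped at both times, although the highest 2 libraries of the series were Kaede-red at 72h. The log2 fold change was 0.02 ± 0.22 at 24h (adjusted p = 0.979), with a 95% interval from -0.43 to 0.47. At 72h it was 0.46 ± 0.22 (adjusted p = 0.144), with an interval from 0.02 to 0.90. Over both times it was 0.24 ± 0.15 (adjusted p = 0.295). Scaling by the total outside Rn45s, Lars2 and Mir6236 in place of TMM, which raised the median gene to 0.26, brought it to 0.44 (adjusted p = 0.0277), and to 0.63 (adjusted p = 0.0291) at 72h.

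Within the C/EBP family, Cebpa and Cebpb differed in opposite directions. Cebpb (chromosome 2, 167688915 to 167690418, plus strand), whose product drives inflammatory and acute-phase genes, was at 65.8, 95.9, 74.9 and 70.7 CPM in the Kaede-green libraries at 24h, whereas the Kaede-red libraries had 54.5, 47.2, 29.2 and 35.5 CPM. All 4 Kaede-red libraries were below all 4 Kaede-green ones, and 12.5% of all genes had no overlap between the colours at this time, in either direction. At 24h Cebpb was thus 0.542 times as high in the Kaede-red group (log2 fold change -0.88 ± 0.20, adjusted p = 0.00349). At that time 5 of the 9 factors were called, against 7.50% of all genes, and 4 of 7 without Pparg and Myc. Cebpb kept its call at 24h when the Rn45s share was a covariate (log2 fold change -1.20, adjusted p = 0.00786).

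At 72h the Cebpb levels of 54.1, 47.9, 49.9 and 53.8 CPM in the Kaede-green and 59.9, 51.8, 56.0 and 49.5 CPM in the Kaede-red libraries overlapped. The log2 fold change was then 0.08 ± 0.19 (adjusted p = 0.840), with an interval from -0.32 to 0.47. The change of the red-green difference from 24h to 72h was 0.96 ± 0.28 (adjusted p = 0.0748) and was not called, whereas DESeq2 gave 0.94 with an adjusted p of 0.00682, a replicate block 0.99 (adjusted p = 0.0456), and leaving out Kaede-red 24h replicate 1 gave 1.12 (adjusted p = 0.0382). Over both times, Cebpb was lower in Kaede-red cells by a log2 fold change of -0.40 ± 0.14 (adjusted p = 0.0352). That call was lost on leaving out Kaede-green 24h replicate 2, Kaede-red 24h replicate 3 or 4, Kaede-green 72h replicate 4 or Kaede-red 72h replicate 2 or 4, with log2 fold changes between -0.39 and -0.34. It was also lost when scaled by the total outside Rn45s, Lars2 and Mir6236 (-0.21, adjusted p = 0.262), with no filter on low counts (-0.28, adjusted p = 0.296) and after thinning to the smallest library (-0.41, adjusted p = 0.0522). Of the 1504 exon bases of Cebpb, 20.7% also lie in exons of Tmem189 on the other strand, and the strand setting of the counting is not given in the sources used here.

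Cebpa (chromosome 7, 35119293 to 35121928, plus strand), whose product directs commitment to the myeloid lineage, was higher in Kaede-red cells. The raw counts in the Kaede-green libraries were small, between 2 and 33. At 24h its level was 3.35, 5.33, 5.61 and 0.818 CPM in the Kaede-green and 10.7, 13.4, 7.80 and 6.59 CPM in the Kaede-red libraries. These groups did not overlap, and Cebpa was 2.44-fold higher in Kaede-red cells (log2 fold change 1.28 ± 0.36, adjusted p = 0.0240). This call ended without Kaede-green 24h replicate 1 or 4 or Kaede-red 24h replicate 1 or 2, with an adjusted p between 0.0604 and 0.0963, and with the Rn45s share as a covariate it was 0.76 (adjusted p = 0.483).

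At 72h the Cebpa level was 2.92, 4.27, 6.57 and 8.58 CPM in the Kaede-green and 9.79, 10.9, 9.68 and 8.34 CPM in the Kaede-red libraries. Only the highest Kaede-green and the lowest Kaede-red library overlapped at that time, and the log2 fold change of 0.76 ± 0.32 was not called (adjusted p = 0.105). It was called without Kaede-green 72h replicate 4 (1.03, adjusted p = 0.0441), with no filter (0.91, adjusted p = 0.0294) and when scaled by the total (0.95, adjusted p = 0.0262). Over both times the log2 fold change was 1.02 ± 0.24 (adjusted p = 0.00239), and this call held on leaving out each library in turn.

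Cebpd (chromosome 16, 15887286 to 15891031, plus strand), an acute-phase member of the family, was low and spread widely in Kaede-green cells. At 24h the Kaede-green libraries had 3.90, 11.5, 8.92 and 0.818 CPM and the Kaede-red libraries 5.45, 3.41, 2.72 and 3.30 CPM. The highest and the lowest library were both Kaede-green. At 72h the levels were 4.02, 5.80, 1.70 and 3.38 CPM in the Kaede-green and 2.86, 4.92, 2.72 and 3.20 CPM in the Kaede-red libraries. The log2 fold change was -0.42 ± 0.31 over both times (adjusted p = 0.355), with an interval from -1.05 to 0.20, and was not called at either time. Exons of Spidr on the other strand share 562 of its 3746 exon bases.

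The balance of Cebpb to Cebpa within a library does not depend on the scaling between libraries. In log2 units, the ratio of their counts in the Kaede-green libraries was 4.19, 4.12, 3.71 and 6.12 at 24h and 4.13, 3.44, 2.90 and 2.63 at 72h. For Kaede-red it was 2.34, 1.81, 1.89 and 2.42 at 24h and 2.61, 2.25, 2.52 and 2.57 at 72h. Each Kaede-red library was below each Kaede-green library, though the highest Kaede-red and the lowest Kaede-green value differed by little. As geometric means, Cebpb counts at 24h were 23.2 times those of Cebpa for Kaede-green and 4.34 times for Kaede-red, and at 72h they were 9.68 and 5.60 times. The highest value, 6.12 in Kaede-green 24h replicate 4, rested on 2 Cebpa counts and raised the Kaede-green mean at 24h. How many other gene pairs separate the colours was not examined. Cebpb to Cebpd overlapped between Kaede-red and Kaede-green at both times.

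**Figure D2:**
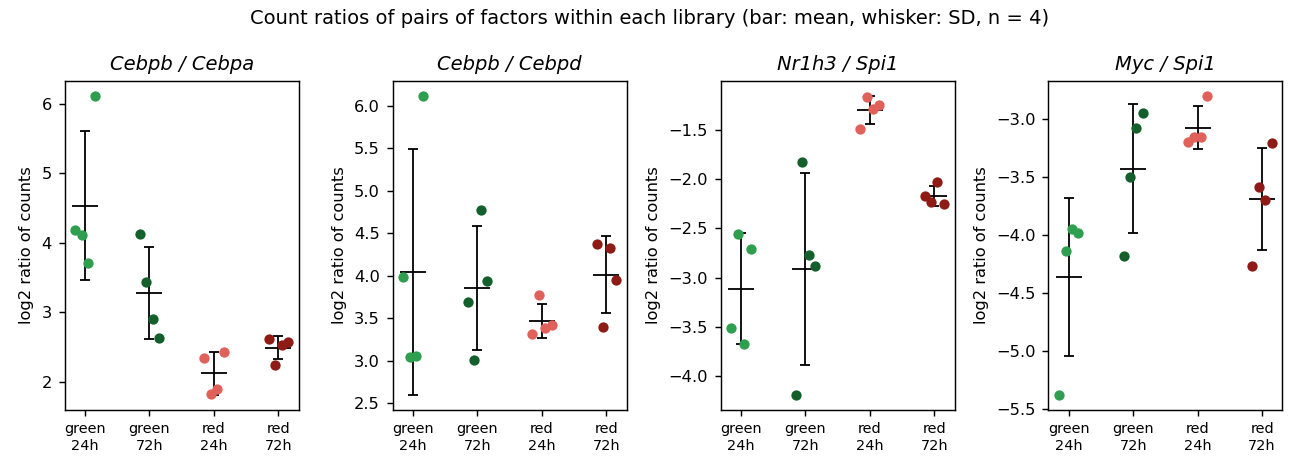
Log2 ratio of the counts of 2 factors within each library (vertical axis) by group for 4 pairs, with 1 point per library, the mean as a bar and the SD as a whisker (n = 4). Cebpb to Cebpa runs from 2.63 to 6.12 in Kaede-green and from 1.81 to 2.61 in Kaede-red libraries, without overlap.

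Maf (chromosome 8, 115682942 to 115707794, minus strand), which encodes the c-MAF factor of mature macrophages, separated Kaede-red from Kaede-green cells in every library. At 24h its level was 8.92, 13.1, 19.6 and 18.4 CPM in the Kaede-green and 32.6, 31.6, 26.7 and 24.9 CPM in the Kaede-red libraries. At 72h it was 11.7, 14.4, 12.9 and 18.7 CPM in the Kaede-green and 35.6, 34.9, 39.0 and 36.5 CPM in the Kaede-red libraries. All 8 Kaede-red libraries were above all 8 Kaede-green libraries, which held for 2.94% of all genes in either direction and among the 9 factors for Maf and Nr1h3.

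Maf was 2.18-fold higher in Kaede-red cells over both times (log2 fold change 1.12 ± 0.15, adjusted p = 1.75e-06). The fold was 1.88 (adjusted p = 0.00740) at the earlier and 2.52 (adjusted p = 4.09e-05) at the later time. At 72h 2 of the 9 factors, Maf and Nr1h3, were called, against 16.8% of all genes. The calls of Maf held without each library in turn, and with the Rn45s share as a covariate they were lost, at log2 fold changes of 0.91 (adjusted p = 0.0534) over both times, 0.72 (adjusted p = 0.215) at 24h and 1.10 (adjusted p = 0.0726) at 72h.

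Nr1h3 (chromosome 2, 91184061 to 91202834, minus strand), which encodes the oxysterol receptor LXRα, showed the largest difference of the 9 factors over both times. At 24h the Kaede-green libraries held 5, 19, 11 and 8 counts, or 2.79, 7.78, 2.80 and 3.27 CPM, and the Kaede-red libraries had 14.9, 17.0, 14.2 and 11.6 CPM. At 72h the levels were 2.56, 10.1, 3.65 and 5.46 CPM in the Kaede-green and 12.96, 12.2, 10.7 and 10.3 CPM in the Kaede-red libraries. All Kaede-red libraries were above all Kaede-green libraries, although Kaede-green 72h replicate 2 lay just below the lowest Kaede-red library.

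Nr1h3 was 2.72-fold higher in Kaede-red cells over both times (log2 fold change 1.44 ± 0.23, adjusted p = 1.55e-05). The fold was 3.49 (adjusted p = 0.000634) at the earlier and 2.12 (adjusted p = 0.0119) at the later time. At 24h it kept its call with the Rn45s share as a covariate (log2 fold change 1.68, adjusted p = 0.0263). At 72h the call was lost without Kaede-green 72h replicate 1 (adjusted p = 0.0573) or 3 (adjusted p = 0.0680), when libraries were thinned to the smallest depth (0.82, adjusted p = 0.111) and with the covariate (0.92, adjusted p = 0.547). Relative to Spi1, the log2 ratio of Nr1h3 counts at 24h averaged -3.11 (Kaede-green) and -1.30 (Kaede-red), with no overlap, and at 72h -2.91 and -2.17, where the groups overlapped.

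Pparg (chromosome 6, 115360951 to 115490399, plus strand), which encodes the fatty acid receptor PPARγ, had few counts in Kaede-green cells. At 24h the 4 Kaede-green libraries held 3, 5, 2 and 1 counts, or 1.67, 2.05, 0.510 and 0.409 CPM, and the Kaede-red libraries had 4.22, 3.28, 2.54 and 3.88 CPM. All 4 Kaede-red libraries were higher, and the log2 fold change was 1.73 ± 0.51 (adjusted p = 0.0327). This call rested on 11 Kaede-green counts in all and was lost without Kaede-green 24h replicate 3 or 4 or Kaede-red 24h replicate 1, 2 or 4 (adjusted p between 0.0519 and 0.147) with only the groups compared in the fit (1.68, adjusted p = 0.0792) and with the covariate (1.38, adjusted p = 0.295).

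At 72h the Pparg level was 3.66, 3.66, 1.95 and 3.12 CPM in the Kaede-green and 5.28, 5.19, 1.97 and 5.31 CPM in the Kaede-red libraries. Kaede-red 72h replicate 3 was nearly as low as the lowest Kaede-green library, while the other 3 were above all Kaede-green libraries. The log2 fold change of 0.59 ± 0.38 was not called (adjusted p = 0.313), nor was it without replicate 3 (0.79, adjusted p = 0.150). Over both times it was 1.16 ± 0.32 (adjusted p = 0.00886).

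Myc (chromosome 15, 61985391 to 61990374, plus strand), the growth and biosynthesis regulator, was also near the counting limit in Kaede-green cells at 24h, with 1, 6, 9 and 3 counts. Its level was 0.558, 2.46, 2.29 and 1.23 CPM in the Kaede-green and 4.57, 4.26, 3.81 and 3.94 CPM in the Kaede-red libraries at the earlier time. At 72h it was 2.56, 3.05, 2.92 and 5.20 CPM in the Kaede-green and 3.01, 4.77, 3.33 and 5.26 CPM in the Kaede-red libraries. The groups were separate at 24h and overlapped at 72h.

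For Myc, the log2 fold change of 1.24 ± 0.42 (adjusted p = 0.0654) at 24h was not called, nor was that of 0.26 ± 0.34 (adjusted p = 0.672) at 72h. Scaling by the total called it at 24h (1.47, adjusted p = 0.0209). Over both times it was 0.75 ± 0.27 (adjusted p = 0.0469). The call over both times held in 5 of the 16 fits that left out a library (Kaede-green 24h replicate 2 or 3, Kaede-green 72h replicate 4 and Kaede-red 72h replicate 1 or 3) and was lost in the others, with an adjusted p of up to 0.106. It was also lost with RLE factors (0.72, adjusted p = 0.0561) and after thinning (0.76, adjusted p = 0.111).

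Bhlhe40 (chromosome 6, 108660629 to 108666925, plus strand), a basic helix-loop-helix repressor linked to macrophage activation and proliferation, did not separate the groups. At 24h its level was 20.1, 15.6, 7.39 and 14.3 CPM in the Kaede-green and 15.9, 15.9, 9.98 and 19.9 CPM in the Kaede-red libraries. At 72h it was 17.5, 9.77, 14.1 and 12.2 CPM in the Kaede-green and 21.5, 12.03, 11.04 and 14.8 CPM in the Kaede-red libraries. The log2 fold change over both times was 0.17 ± 0.19 (adjusted p = 0.597), with an interval from -0.23 to 0.56.

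**Figure D3:**
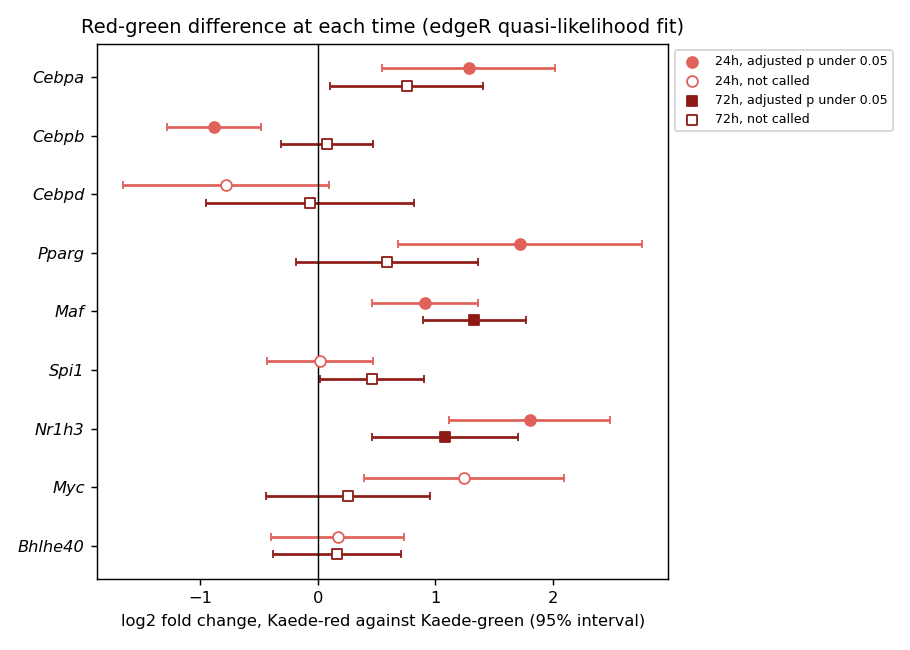
Log2 fold change of Kaede-red against Kaede-green cells (horizontal axis) with its 95% interval for each factor at 24h (circles) and at 72h (squares), filled where the adjusted p was under 0.05. Cebpb alone was called lower, at 24h (-0.88), and Maf and Nr1h3 were called higher at both times.

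Time since photoconversion was compared within each fluorescence group. In Kaede-green cells, 0 of the 9 factors were called between 72h and 24h, against 0.0% of all genes. Of all genes, 835 had an unadjusted p under 0.05, and DESeq2 called 14 (of 6074 genes with an adjusted p). Cebpb was lower at 72h in all 4 libraries (log2 fold change -0.58 ± 0.20, adjusted p = 0.401), and Myc was higher in all 4 (0.99 ± 0.45, adjusted p = 0.536). Pparg had a log2 fold change of 1.51 ± 0.55 (adjusted p = 0.430), from 11 counts in all at 24h to 42 at 72h. None of these 3 differences passed the test, and 3.00% of all genes had no overlap between the 2 Kaede-green groups.

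In Kaede-red cells, 0 of the 9 were called between 72h and 24h, against 8.68% of all genes. Of 5 monocyte markers, 2 (Vcan and Chil3) were called higher at 72h in these cells. Spi1 was higher at 72h in all 4 libraries (log2 fold change 0.55 ± 0.21, adjusted p = 0.103) and was called when only the Kaede-red groups were fitted (0.54, adjusted p = 0.0320). Maf was also higher in all 4 libraries at 72h (0.33 ± 0.20, adjusted p = 0.329), a separation that 20.6% of all genes had. Cebpb differed by 0.38 ± 0.19 (adjusted p = 0.228) and Nr1h3 by -0.32 ± 0.26 (adjusted p = 0.513). For Cebpa (0.01 ± 0.28) and Myc (0.00 ± 0.30), the intervals ran from -0.57 to 0.59 and from -0.60 to 0.61. The red-green difference changed with time for 0 of the 9 factors, against 0.757% of all genes, and after Cebpb the smallest adjusted p was 0.394, for Myc (-0.98 ± 0.55).

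Known target genes of the factors were described by list, each beside the median of all genes (0.06 over both times). Of all genes tested, 20.3% were called over both times, in either direction. Of 11 tested MAF targets, 8 were called higher and 0 lower in Kaede-red cells, with a list median of 1.51. The complement genes C1qa (2.72 ± 0.16, adjusted p = 2.41e-13), C1qc (2.53 ± 0.18, adjusted p = 2.55e-11) and C1qb (2.26 ± 0.20, adjusted p = 1.52e-09) had the smallest adjusted p. Of the 11 genes, 5 passed the filter on low counts only through the Kaede-red libraries (fewer than 4 of the Kaede-green libraries reached its level). Without them 5 of 6 were called higher over both times, with a median of 1.89. C1qa was between 6.88 and 22.6 CPM in the Kaede-green and between 54.1 and 94.7 CPM in Kaede-red libraries. At 24h, when 7.50% of all genes were called, and at 72h, when 16.8% were, 7 of the 11 were called higher, and 5 and 4 of the 6.

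Of 10 tested LXR targets, 6 were called higher and 1, the desaturase gene Scd2 (-0.66 ± 0.18, adjusted p = 0.00855, named after its value was seen), lower, and the list median was 0.90. Without the 2 that passed the filter through Kaede-red alone, 5 of 8 were higher and 1 lower. Those with the smallest adjusted p were the phospholipid transfer protein Pltp (2.24 ± 0.23, adjusted p = 1.23e-08), the apolipoprotein Apoe (1.57 ± 0.20, adjusted p = 4.89e-07) and the cholesterol exporter Abca1 (1.34 ± 0.18, adjusted p = 8.56e-07). Abca1 was between 5.48 and 19.7 CPM in the Kaede-green and between 26.1 and 42.5 CPM in Kaede-red libraries. Pltp had the smallest adjusted p at both times, with 2.14 ± 0.35 at 24h and 2.34 ± 0.30 at 72h, and was also called higher at 72h than at 24h within Kaede-red cells (0.91 ± 0.26, adjusted p = 0.0237).

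Of 9 tested PPARγ targets, 6 were called higher and 0 lower, with a list median of 0.73. Cd36 was among 4 that passed the filter through Kaede-red alone, and without these 4 of 5 were called higher. The lipid droplet protein Plin2 (0.96 ± 0.14, adjusted p = 6.21e-06), the fatty acid receptor Cd36 (1.85 ± 0.29, adjusted p = 1.79e-05) and the mitochondrial carrier Ucp2 (0.73 ± 0.16, adjusted p = 0.00107) had the smallest adjusted p. Fabp5, a fatty acid carrier, was called higher at 24h in the Kaede-red group (1.29 ± 0.21, adjusted p = 0.000130) and lower at 72h than at 24h within Kaede-red cells (-0.99 ± 0.20, adjusted p = 0.00297). Its red-green difference fell by 1.32 from 24h to 72h (adjusted p = 0.0356).

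C/EBP targets had a list median of -1.04, with 5 of 8 tested members called lower and 2 higher in Kaede-red cells. The cytokine Il6 (-3.33 ± 0.34, adjusted p = 1.27e-08), the prostaglandin synthase Ptgs2 (-1.15 ± 0.14, adjusted p = 2.74e-07) and haptoglobin, Hp (-1.51 ± 0.20, adjusted p = 7.39e-07) were lower. Il6 passed the filter only through the Kaede-green libraries, where it is high, and without it 4 of 7 were called lower, with a median of -0.93. Arginase, Arg1 (0.76 ± 0.20, adjusted p = 0.00696), and the G-CSF receptor Csf3r (0.67 ± 0.17, adjusted p = 0.00566), named after their values were seen, were higher. The monocyte marker Plac8 and the fibroblast marker sum were also lower in Kaede-red cells, and in this list Chil3, also called lower, is a monocyte marker and Csf3r a neutrophil marker. Il6 was between 5.20 and 15.5 CPM in the Kaede-green and between 0.264 and 3.02 CPM in Kaede-red libraries. Like Cebpb, Hp was lower at 24h in the Kaede-red group (-2.45 ± 0.29, adjusted p = 1.18e-06), but its difference, unlike that of Cebpb, passed the test for a change with time (1.89 ± 0.39, adjusted p = 0.0243).

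Of 14 tested PU.1 targets, 7 were called higher and 0 lower, with a median of 0.48, and those with the smallest adjusted p were the F4/80 gene Adgre1 (1.53 ± 0.15, adjusted p = 8.06e-09), the mannose receptor Mrc1 (1.51 ± 0.18, adjusted p = 1.70e-07) and Cd68 (1.14 ± 0.16, adjusted p = 1.99e-06). Their number was 3 at 24h and 8 at 72h, while the share called of all genes was 7.50% and 16.8%. Of 16 tested MYC targets, 1 was called over both times, the cyclin Ccnd2 (0.99 ± 0.15, adjusted p = 1.12e-05), which was higher, and the list median was 0.06. Without the 2 MYC targets that passed the filter through Kaede-red alone, the median of the 14 left was -0.07. At 24h 2 were called higher, Odc1 (0.93 ± 0.23, adjusted p = 0.0101) and Ccnd2 (0.71 ± 0.22, adjusted p = 0.0414). At 72h 1 was, Ccnd2 (1.27 ± 0.21, adjusted p = 6.58e-05). The lists overlap, since Mrc1 stands in both the MAF and the PU.1 list, Mertk in both the MAF and the LXR list, and all 6 macrophage markers stand in one or more of the target lists.

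**Figure D4:**
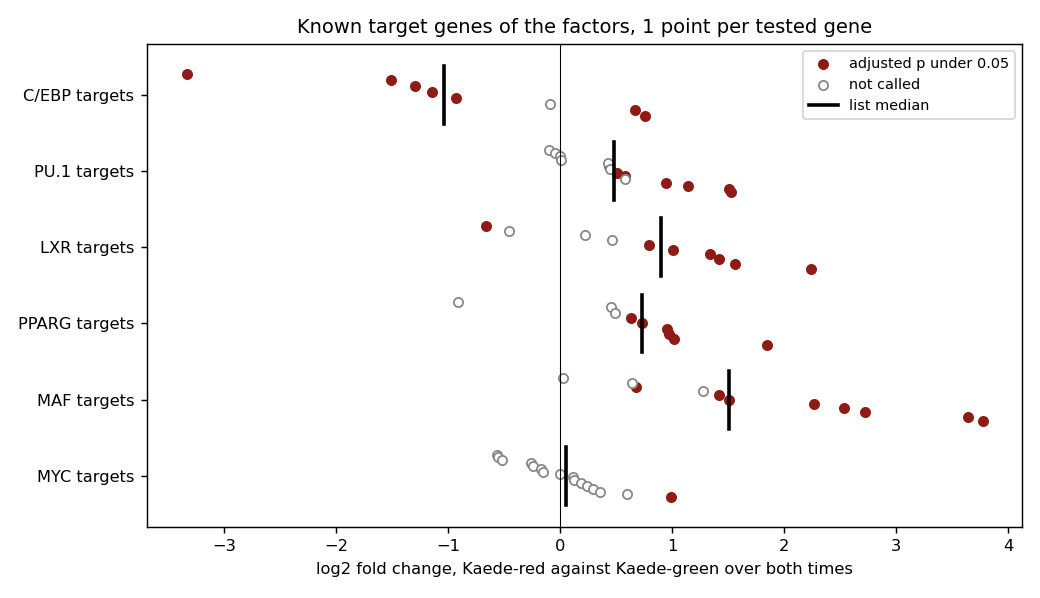
Log2 fold change over both times between Kaede-red and Kaede-green (horizontal axis, higher in Kaede-red to the right) for each tested gene of 6 lists of known targets, filled where the adjusted p was under 0.05, with the list median as a bar. The median is -1.04 for C/EBP targets, 1.51 for MAF targets and 0.06 for MYC targets.

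Of the relatives and partners of the 9 factors, 4 lists are described, over both times, where 20.3% of all genes tested were called. The counts called are not read as a result about these lists. Among 9 tested C/EBP and AP-1 partners, Jun was higher (0.57 ± 0.15, adjusted p = 0.00445) and Fos lower (-0.52 ± 0.14, adjusted p = 0.00887) in Kaede-red cells. Of 11 nuclear receptors and cofactors, the immediate early receptors Nr4a1 (-1.42 ± 0.14, adjusted p = 1.09e-08) and Nr4a2 (-1.21 ± 0.31, adjusted p = 0.00532) were lower and the LXRβ gene Nr1h2 (0.64 ± 0.23, adjusted p = 0.0487) was higher. Nr4a1 was between 27.8 and 53.5 CPM in the Kaede-green and between 11.3 and 18.0 CPM in Kaede-red libraries. Of 12 MYC network and related helix-loop-helix genes, Tfec (-1.13 ± 0.28, adjusted p = 0.00344) was lower and Mitf (0.70 ± 0.25, adjusted p = 0.0440) higher. Of 13 other myeloid factors, Id2 (1.16 ± 0.18, adjusted p = 1.09e-05), Zeb2 (0.60 ± 0.14, adjusted p = 0.00141) and Runx3 (0.78 ± 0.21, adjusted p = 0.00768, named after its value was seen) were higher and Nfil3 (-0.74 ± 0.15, adjusted p = 0.000445) lower. Of the genes named here, Nr1h2 and Mitf passed the filter only through the Kaede-red libraries. The medians of these 4 lists were between -0.10 and 0.25. Of the tested genes, 3 of the 9 partners, 5 of the 11 nuclear receptors and cofactors and 3 of the 12 MYC network genes passed through Kaede-red alone. Without them the medians of these 3 lists were 0.21, -0.26 and -0.06, and that of the other myeloid factors was 0.12.

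The gene most like each factor across the 16 libraries was sought among 1391 genes with a mean log2 CPM of at least 4, as a description. For Maf these were Cd93 (Pearson r = 0.94) and Ccnd2 (r = 0.93), for Nr1h3 Plau (r = 0.91) and Plin2 (r = 0.91), and for Cebpa Fcgr2b (r = 0.90) and Plekha2 (r = 0.90). Cebpb was most like Trib1 (r = 0.91) and Cmpk2 (r = 0.90), and Spi1 most like Sp110 (r = 0.89) and Adar (r = 0.88). For the low genes the values were 0.86 and 0.85 for Pparg (Cxcl16 and H2-Eb1), 0.85 and 0.79 for Myc (Ptp4a2 and Arrb2) and 0.81 and 0.77 for Cebpd (Fcgr3 and Ubl3). Bhlhe40 had the lowest, with 0.73 for Pgam1 and 0.71 for Pfkfb3, both glycolytic genes. The 16 points share the fluorescence groups, and depth and Rn45s share differ with these groups.

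Markers of other cell types were mostly low. The 6 fibroblast markers summed to between 40.3 and 52.3 CPM in the Kaede-green and between 12.0 and 37.4 CPM in Kaede-red libraries, with 3 of 4 tested called lower in Kaede-red cells. The 5 endothelial markers, of which Vwf and Tek had at most 8 counts in any library and Kdr at least 17, were between 9.77 and 19.0 CPM in the Kaede-green and between 18.1 and 36.8 CPM in Kaede-red libraries. Of the 3 tested, Kdr (1.06 ± 0.17, adjusted p = 1.77e-05) and Pecam1 (1.02 ± 0.25, adjusted p = 0.00308) were called higher in Kaede-red cells over both times. Cdh5 was called lower (-1.42 ± 0.49, adjusted p = 0.0377), with at most 4.62 CPM in any library. The 6 neutrophil markers in the files summed to between 8.60 and 22.4 CPM, highest in Kaede-red cells at 72h, and dendritic markers to between 1.23 and 5.09 CPM. Csf3r made up much of the neutrophil sum, with a mean of 16.4 CPM in Kaede-red 72h libraries. S100a8, S100a9, Retnlg and Cxcr2 had at most 12, 21, 10 and 6 counts in any library, and Mmp8 at most 134. The dendritic marker Ccr7, at 0 in all Kaede-green 24h libraries, was called higher in Kaede-red cells over both times (adjusted p = 0.000403), with at most 2.47 CPM in any library, and so was the T cell marker Cd4 (adjusted p = 0.0469), with at most 1.55 CPM. Both passed the filter only through the Kaede-red libraries. Of the 6 T and NK cell markers, Cd4 was the 1 tested. At 24h their sum was between 1.12 and 4.09 CPM in the Kaede-green and between 0.878 and 2.91 CPM in the Kaede-red libraries. At 72h it was between 0 and 2.08 CPM and between 0.454 and 3.44 CPM. Adipocyte markers, which bear on Pparg and Cebpa as factors of fat cells, were at 0 in all Kaede-red 24h libraries and at most 1.22 CPM in any library. Eosinophil and mast cell markers reached at most 0.730 CPM, B cell markers 2.45 CPM, T and NK cell markers 4.09 CPM, tumour epithelial markers 3.68 CPM and erythroid markers 5.81 CPM. Dividing-cell markers were between 20.1 and 56.6 CPM. The part of the fibroblast, endothelial, neutrophil, Ccr7 and Cd4 differences in the results was not tested.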

How the data were processed

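Bulk RNA-seq was analysed for 16 libraries of sorted CD11b+ tumour cells, made with a stranded total RNA pico input kit from 5 ng of RNA. Per the labels and the methods of the study, the authors used Trim Galore for trimming, HISAT2 for alignment (mm10) and featureCounts for gene counts; versions, annotation and strand setting are not given in the sources used here. The deposited values are raw counts for 24421 genes, without normalization. A combined table was not used. Each of the 24 pairs of replicates within a group differed by more than sampling noise (chi-square per gene between 2.91 and 82.1). According to the study the points are tumours of separate mice, while pairing of Kaede-green and Kaede-red libraries of a tumour is not stated.

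Genes kept by filterByExpr with default settings (9642) were tested with the quasi-likelihood test of edgeR 4.0.16 in R 4.3.3, with TMM factors, 1 mean per group and Benjamini-Hochberg adjustment over all genes tested. CPM are per 1000000 TMM-scaled counts; intervals are 95% and use the degrees of freedom of the fit. Count ratios added 0.5 to each count, and likeness used log2 CPM with a prior count of 2. Positions and exon lengths are from GENCODE M21 (GRCm38), matched by symbol for 95.7% of genes. The alternatives were DESeq2 1.42.0, RLE factors, scaling by the total outside Rn45s, Lars2 and Mir6236, leaving out these genes, no filter, at least 10 counts in every library, only the groups compared, a replicate block, thinning to 468092 counts outside Rn45s, the Rn45s share as a covariate, and leaving out each library. On counts simulated for 9642 genes, the test between the colours over both times recovered 66.0% of genes changed by 1 and 95.7% of those changed by 2 on the log2 scale. For genes changed by 1, recovery was 31.9% for the colours at 24h, 36.5% at 72h, 24.5% between times in Kaede-green, 62.8% between times in Kaede-red and 8.93% for the change with time. Low counts limit the precision for Pparg, Myc, Cebpa, Cebpd and Nr1h3 in Kaede-green libraries.

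All 9 members were named. Of each list of targets or relatives described, up to 3 called genes with the smallest adjusted p over both times were named. In other comparisons only some of the called genes were named. The members and lists were chosen with earlier results of these data known. Some genes, and the list of MAF and ETS relatives, are not reported here.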

Additional observations from a re-analysis of the deposited data

Results flagged for a closer look

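For each factor and group the library farthest from the other 3 was compared with the range of the group, in 36 groups of 4 libraries, and 2 of them held a library that stood apart, where chance alone flags about 1 in 20 groups. Pparg in Kaede-red 72h replicate 3 was at 1.97 CPM, against 5.19 to 5.31 CPM in the other 3 libraries, and that library had the fewest counts outside Rn45s of its group (1080792). Nr1h3 in Kaede-green 24h replicate 2 was at 7.78 CPM, against 2.79 to 3.27 CPM in the other 3. Without that library, the log2 fold change of Nr1h3 at 24h was 2.27 (adjusted p = 0.000158).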

How the results depend on the processing

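Over the 9 factors and 6 comparisons, most alternatives left directions and calls as reported; the exceptions follow. With the Rn45s share as a covariate, 0 factors were called over both times, 2 at 24h (Nr1h3 and Cebpb) and 0 at 72h, and uncalled log2 fold changes turned sign for Spi1 over both times (-0.094) and at 24h (-0.28), for Cebpb (-0.30) and Myc (-0.39) at 72h, and for Cebpa (-0.23) and Myc (-0.33) between times in Kaede-red cells. The Rn45s share differs with fluorescence, and the 2 cannot be told apart. A minimum of 10 counts in every library left 4 factors (Cebpb, Maf, Spi1 and Bhlhe40), of which 2 were called over both times, 2 at 24h, 1 at 72h and 1, Cebpb, for the change with time. Scaling by the total outside Rn45s, Lars2 and Mir6236 gave 4 calls at 72h, and thinning gave 1. Fitting only the groups compared gave 1 call between times in Kaede-red cells, and DESeq2 gave 1 for the change with time. Values near 0 turned sign for Cebpd at 72h (0.11 with scaling by the total, 0.090 without a filter), for Cebpa between times in Kaede-red cells (-0.039 with RLE factors, -0.035 with the total, -0.037 with DESeq2 and -0.029 without the 3 genes), for Myc there (-0.050, -0.042, -0.043 and -0.038 in the same order) and for Bhlhe40 without a filter (0.018 between times in the Kaede-red groups, 0.055 for the change with time). The cause was not tested. Over all genes, scaling by the total made 75.6% of the calls over both times higher in Kaede-red cells, against 49.5%, and 74.3% against 42.9% at 24h and 67.6% against 47.9% at 72h. The covariate gave 156 calls against 1959 over both times, 206 against 723 at 24h, 101 against 1622 at 72h, 110 against 837 between times in the Kaede-red groups and 34 against 73 for the change with time. Between times in Kaede-red, fitting only these groups gave 1611 calls and thinning 478. In Kaede-green, no filter gave 37 and thinning 1. For the change with time, the minimum of 10 counts gave 156, DESeq2 344, no filter 216, the block 165 and thinning 34.

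Deviations from the group means of same-numbered Kaede-red and Kaede-green libraries correlated by between -0.02 and 0.15. At 24h replicates 1 (0.08 against 0.07) and 4 (0.15 against 0.06) were above the best other number. Replicates 2 (0.09 against 0.15) and 3 (0.05 against 0.06) were below it, as was each replicate at 72h. Such low correlations cannot tell whether a number marks a shared tumour, and the numbers were not taken to pair samples. With a replicate block, Myc lost its call over both times (0.78, adjusted p = 0.0708), Cebpb gained one for the change with time (0.99, adjusted p = 0.0456), 1 factor in all was called for that change, and Myc between times in the Kaede-red groups was -0.048. No other call changed.

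Leaving out 1 library gave 4 to 6 factors called over both times, 3 to 5 at 24h, 1 to 3 at 72h and 0 to 1 for the change with time. Signs turned in some of these fits, with log2 fold changes at 24h from -0.16 to 0.16 for Spi1 and from -0.10 to 0.34 for Bhlhe40, and at 72h from -0.35 to 0.21 for Cebpd and from -0.072 to 0.28 for Bhlhe40. Between times in Kaede-green cells they were -0.26 to 0.063 for Maf, -0.076 to 0.25 for Spi1, -0.064 to 0.86 for Nr1h3 and -0.32 to 0.12 for Bhlhe40. In Kaede-red cells they were -0.15 to 0.21 for Cebpa, -0.35 to 0.14 for Cebpd, -0.15 to 0.13 for Myc and -0.30 to 0.089 for Bhlhe40, and for the change with time -0.24 to 0.24 for Bhlhe40. Depth limits Pparg, Myc, Cebpa, Cebpd and Nr1h3, which had 1 to 35 counts in Kaede-green libraries.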
